A study of Mus musculus with 12 samples.

Results

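NF-kB is a family of dimeric transcription factors that sit in the cytoplasm of a resting T cell, bound to inhibitor proteins, until a receptor signal releases them. The family was followed here through 10 genes, taken by symbol from the 35855 genes of the quantified transcriptome: the subunits Rela (p65), Relb, Rel (c-Rel), Nfkb1 (p105/p50) and Nfkb2 (p100/p52), the kinase complex genes Ikbkb (IKK beta), Chuk (IKK alpha) and Ikbkg (NEMO), and the inhibitors Nfkbia (I-kappa-B alpha) and Tnfaip3 (A20). In the canonical branch, the T cell receptor activates a complex of IKK beta, IKK alpha and NEMO, which marks I-kappa-B alpha for destruction and frees dimers such as p65/p50. In the noncanonical branch, IKK alpha drives the processing of p100 to p52, the partner of RelB. Nfkbia and Tnfaip3 are induced by NF-kB and switch it off again.

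RNA was sequenced from sorted CD8 T cells of WT and TCF-1 cKO mice, which lack the transcription factor TCF-1 (gene Tcf7). There were 4 groups of 3 libraries: WT pre-transplant, TCF-1 cKO pre-transplant, WT post-transplant and TCF-1 cKO post-transplant. All donors had a C57BL/6 background, and the TCF-1 cKO donors carried a floxed Tcf7 allele with CD4cre, which deletes in all T cells from the double-positive stage of the thymus on, so CD4 T cells lost the gene as well. Pre-transplant cells came from donor spleens, and post-transplant cells were donor CD8 T cells sorted from spleens of irradiated BALB/c recipients on day 7 after transfer. In the study's general protocol, recipients also received WT bone marrow depleted of T cells. For the RNA experiment its methods name CD3 donor T cells, while a figure legend names sorted CD8 T cells as those transplanted. The labels give no age and do not say whether WT donors carried Cre. They also do not say whether replicates were separate mice, so the p-values below measure the spread between libraries, which may be technical.

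Several libraries stood apart before any NF-kB gene was considered. Tcf7 lay between 115 and 205 CPM (counts scaled to a common library total) in WT and between 56.8 and 97.1 CPM in TCF-1 cKO cells before transplant. After transplant it lay between 6.89 and 17.2 CPM in WT and between 8.99 and 9.48 CPM in TCF-1 cKO cells, and the library labelled WT post-transplant replicate 3, at 6.89 CPM, was below every TCF-1 cKO library. Tcf7 was called in neither genotype comparison below, with a log2 fold change of -1.35 before and -0.91 after transplant. Total estimated counts ran from 4520270 to 9577076 in TCF-1 cKO pre-transplant libraries, against 18978963 to 28884454 in WT pre-transplant and 18184814 to 32657005 in all post-transplant libraries. Libraries of a group also departed from its mean along transcript GC content, measured as the Spearman correlation over 21526 genes between GC content and that deviation. It was 0.51 in TCF-1 cKO pre-transplant replicate 3, against -0.29 and -0.41 in replicates 1 and 2. In WT post-transplant replicate 3 it was -0.43, against 0.088 and 0.38 in replicates 1 and 2, and in the other 6 libraries it lay between -0.19 and 0.18.

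Cell type markers were checked against the sort. The 7 B cell markers summed to 13478 to 16856 CPM in WT and 9321 to 15068 CPM in TCF-1 cKO pre-transplant libraries, while the 5 CD8 T cell markers summed to 1166 to 1234 and 563 to 613 CPM. After transplant the order turned over: B cell markers summed to 398 to 468 CPM in WT and 228 to 358 CPM in TCF-1 cKO, and CD8 T cell markers to 3125 to 3545 and 4314 to 5167 CPM. Myeloid and dendritic cell markers (8 genes) summed to 1199 to 3121 CPM before and 51.8 to 179 CPM after transplant, and erythroid markers (6 genes) to 4459 to 26444 CPM before and 205 to 1193 CPM after. The 2 CD4 T cell markers summed to 68.1 to 179 CPM before and 1.97 to 24.2 CPM after transplant. For replicate 2 of the TCF-1 cKO post-transplant group a label gives CD4 T cells as the cell type, but Cd4 was at or below 4.32 CPM in every TCF-1 cKO post-transplant library, where Cd8a was at or above 331 CPM. In libraries of bulk RNA, fewer cells of a type and less RNA per cell cannot be told apart.

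**Figure D1:**
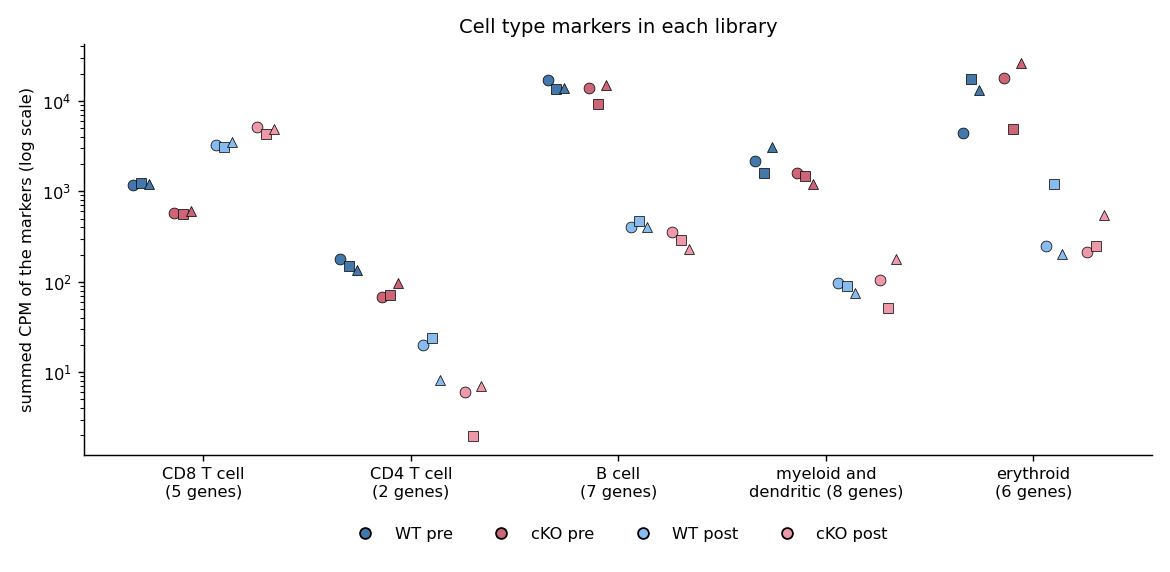
Summed CPM of 5 marker lists in each of the 12 libraries (log axis; circle, square and triangle are replicates 1, 2 and 3). B cell markers exceed CD8 T cell markers in all 6 pre-transplant libraries, and the reverse holds in all 6 post-transplant libraries.

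The members differ widely in base composition, and their sequences are shown here because the genotype differences below followed it. Pooled over the quantified transcripts of a gene, GC content was 59.1% for Nfkb2, 59.1% for Relb and 58.8% for Rela, then 54.2% for Nfkbia, 51.0% for Nfkb1, 50.6% for Ikbkb, 48.1% for Tnfaip3 and 46.9% for Ikbkg, and lowest at 42.8% for Chuk and 42.5% for Rel. For the members at both ends of this order, the difference reaches into the reading frame. At the third codon position G or C made up 63.4% of Rela, 64.2% of Nfkb2 and 70.6% of Relb, but 42.1% of Chuk and 37.4% of Rel. The other members did not keep the pooled order there, at 73.2% for Nfkbia, 68.3% for Ikbkb, 68.1% for Ikbkg and 55.7% for Tnfaip3. No value was taken for Nfkb1, whose most abundant transcript retains an intron. Below are the middle 120 coding bases of 4 members in their most abundant transcript, with G and C in capitals, from the GENCODE M21 transcripts of GRCm38. The stretch holds 73 G or C bases in Rela, 86 in Nfkb2, 52 in Chuk and 42 in Rel. In Ikbkg, which is not shown and has a low pooled GC content, it holds 76.
Rela: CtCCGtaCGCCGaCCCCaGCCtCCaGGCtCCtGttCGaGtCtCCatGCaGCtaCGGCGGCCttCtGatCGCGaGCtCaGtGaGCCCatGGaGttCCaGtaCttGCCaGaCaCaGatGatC
Nfkb2: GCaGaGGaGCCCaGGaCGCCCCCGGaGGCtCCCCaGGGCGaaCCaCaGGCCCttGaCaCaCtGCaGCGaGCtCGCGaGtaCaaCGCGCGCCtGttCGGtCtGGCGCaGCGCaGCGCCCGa
Chuk: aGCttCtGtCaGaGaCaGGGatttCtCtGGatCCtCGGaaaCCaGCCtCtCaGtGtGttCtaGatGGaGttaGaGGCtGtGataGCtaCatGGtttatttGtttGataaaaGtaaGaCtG
Rel: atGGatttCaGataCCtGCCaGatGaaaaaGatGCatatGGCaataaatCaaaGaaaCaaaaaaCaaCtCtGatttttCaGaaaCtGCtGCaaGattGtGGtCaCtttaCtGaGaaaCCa

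In GRCm38 coordinates these genes are Rela (ENSMUSG00000024927) at chr19:5637483-5648130 on the plus strand, Nfkb2 (ENSMUSG00000025225) at chr19:46304320-46312385 on the plus strand, Chuk (ENSMUSG00000025199) at chr19:44073335-44107480 on the minus strand and Rel (ENSMUSG00000020275) at chr11:23736847-23770970 on the minus strand. The stretches span coding bases 764 to 883 of Rela-201 (11 exons), 1258 to 1377 of Nfkb2-206 (22 exons), 1058 to 1177 of Chuk-201 (21 exons) and 823 to 942 of Rel-201 (10 exons). Rela, Nfkb2 and Chuk, whose values moved in different directions, thus lie on the same chromosome.

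Genes of this family also carry NF-kB sites of their own, and the promoter windows were searched on both strands for the kappa-B decamer consensus. RefSeq windows (GRCm38.p6, 250 bases before to 50 after a start) were at hand for 7 of the 10 members, in 13 windows. The decamer occurred in 6 windows of 4 members (Nfkbia, Nfkb2, Rel and Tnfaip3), and it occurred in 8.46% of all 32851 windows. Of the 3 Nfkb2 windows, 2 overlap and hold the same GGGACTTTCC site, which is thus counted in both. The 150 bases before the start are shown for Nfkbia and Rel, whose starts lie at the edge of the annotated gene, 5′ to 3′ along the gene's strand and with matched bases in capitals.
Nfkbia, chr12:55492648-55492797, minus strand: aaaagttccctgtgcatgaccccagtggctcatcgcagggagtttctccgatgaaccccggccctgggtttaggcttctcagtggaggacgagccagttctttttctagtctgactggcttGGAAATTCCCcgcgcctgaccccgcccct
Rel, chr11:23770970-23771119, minus strand: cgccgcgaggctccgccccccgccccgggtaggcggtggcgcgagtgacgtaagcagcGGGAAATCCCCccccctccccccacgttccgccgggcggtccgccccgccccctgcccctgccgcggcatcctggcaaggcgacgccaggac

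The match in Nfkbia lay at -29 from the start, and the 2 in Rel at -92 and -91 overlap, so that their capitals run together. In the first window of Nfkb2 the matches were GGGAATTCCC at -39, GGAATTCCCC at -38 and GGGGCTTTCC at -11, and in Tnfaip3 they were GGGACACCCC at -125 and GGAAATCCCC at -12. Rela, Chuk and Ikbkg had no match in their windows. A match describes letters in a window and is no measure of binding.

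Levels of the subunits are given first, in TPM, the transcript abundance scaled to a common total, which is also scaled for transcript length and so can be compared between genes. Rela, whose protein p65 carries the transactivation domain of the canonical dimer, was at 66.4, 59.8 and 81.8 TPM in WT pre-transplant libraries, 22.5, 26.5 and 71.2 TPM in TCF-1 cKO pre-transplant, 38.8, 55.5 and 11.5 TPM in WT post-transplant, and 5.35, 1.57 and 1.55 TPM in TCF-1 cKO post-transplant (replicates 1 to 3 in each case). Relb, the noncanonical subunit, was at 108, 108 and 80.9 TPM, then 21.4, 18.2 and 71.4 TPM, then 18.4, 27.7 and 6.36 TPM, and then 3.40, 1.65 and 1.94 TPM in the same order. Nfkb2, the partner of RelB, was at 54.0, 95.2 and 70.9 TPM, then 21.2, 34.1 and 59.1 TPM, then 17.2, 39.5 and 3.61 TPM, and then 2.65, 1.49 and 0.981 TPM. These 3 genes shared a pattern: TCF-1 cKO pre-transplant replicate 3 stood well above the other 2 libraries of its group, WT post-transplant replicate 3 well below the other 2 of its group, and the TCF-1 cKO post-transplant libraries below all others.

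Nfkb1 encodes p105, the precursor of the p50 part of the canonical dimer. It was at 47.2, 69.2 and 62.2 TPM in WT pre-transplant, 44.7, 32.7 and 48.1 TPM in TCF-1 cKO pre-transplant, 17.8, 14.2 and 12.6 TPM in WT post-transplant and 5.74, 9.33 and 7.37 TPM in TCF-1 cKO post-transplant libraries. Rel, a subunit found mainly in lymphoid and myeloid cells, was at 7.35, 3.03 and 7.94 TPM, then 4.10, 7.49 and 3.22 TPM, then 0.366, 0.111 and 0.464 TPM, and then 0.654, 0.947 and 0.567 TPM. The groups of Nfkb1 fell into the order just given with overlap only between the pre-transplant genotypes, whereas the post-transplant libraries of Rel were higher in TCF-1 cKO than in WT.

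Among the kinases, Ikbkb, the main catalytic subunit of the canonical branch, was at 115, 98.7 and 112 TPM in WT pre-transplant, 50.6, 47.6 and 74.9 TPM in TCF-1 cKO pre-transplant, 25.4, 27.7 and 24.9 TPM in WT post-transplant, and 19.6, 29.8 and 9.31 TPM in TCF-1 cKO post-transplant libraries. Chuk, the kinase of the noncanonical branch, was at 33.2, 19.8 and 35.7 TPM, then 58.8, 76.2 and 24.1 TPM, then 5.25, 1.93 and 10.3 TPM, and then 17.2, 13.7 and 18.5 TPM. Ikbkg, the scaffold without kinase activity, was at 14.3, 12.8 and 17.7 TPM, then 25.5, 9.42 and 26.9 TPM, then 15.0, 8.84 and 6.62 TPM, and then 4.34, 7.51 and 3.13 TPM. Chuk ran against Rela in the libraries that stood apart: it was lowest of its group in TCF-1 cKO pre-transplant replicate 3 and highest of its group in WT post-transplant replicate 3.

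Of the inhibitors, Nfkbia was at 363, 546 and 377 TPM in WT pre-transplant, 150, 155 and 431 TPM in TCF-1 cKO pre-transplant, 188, 196 and 62.9 TPM in WT post-transplant and 27.2, 75.5 and 19.8 TPM in TCF-1 cKO post-transplant libraries. Tnfaip3, the ubiquitin-editing enzyme A20, was at 7.68, 10.5 and 15.7 TPM, then 10.6, 10.8 and 11.7 TPM, then 4.31, 2.77 and 4.25 TPM, and then 4.32, 2.04 and 0.724 TPM. Nfkbia had the highest group mean of the 10 members and Rel the lowest in all 4 groups. In WT pre-transplant cells the order of means below Nfkbia was Ikbkb, Relb, Nfkb2, Rela and Nfkb1, and the libraries of each gene overlapped those of the next in that order. Chuk followed below them without overlap, and then Ikbkg, Tnfaip3 and Rel. In TCF-1 cKO post-transplant cells, Ikbkb and Chuk came directly below Nfkbia with overlapping ranges, at 19.6 ± 10.3 and 16.5 ± 2.48 TPM (SD, n = 3), while Rela, Relb and Nfkb2 stood at 2.82 ± 2.19, 2.33 ± 0.935 and 1.70 ± 0.854 TPM.

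**Figure D2:**
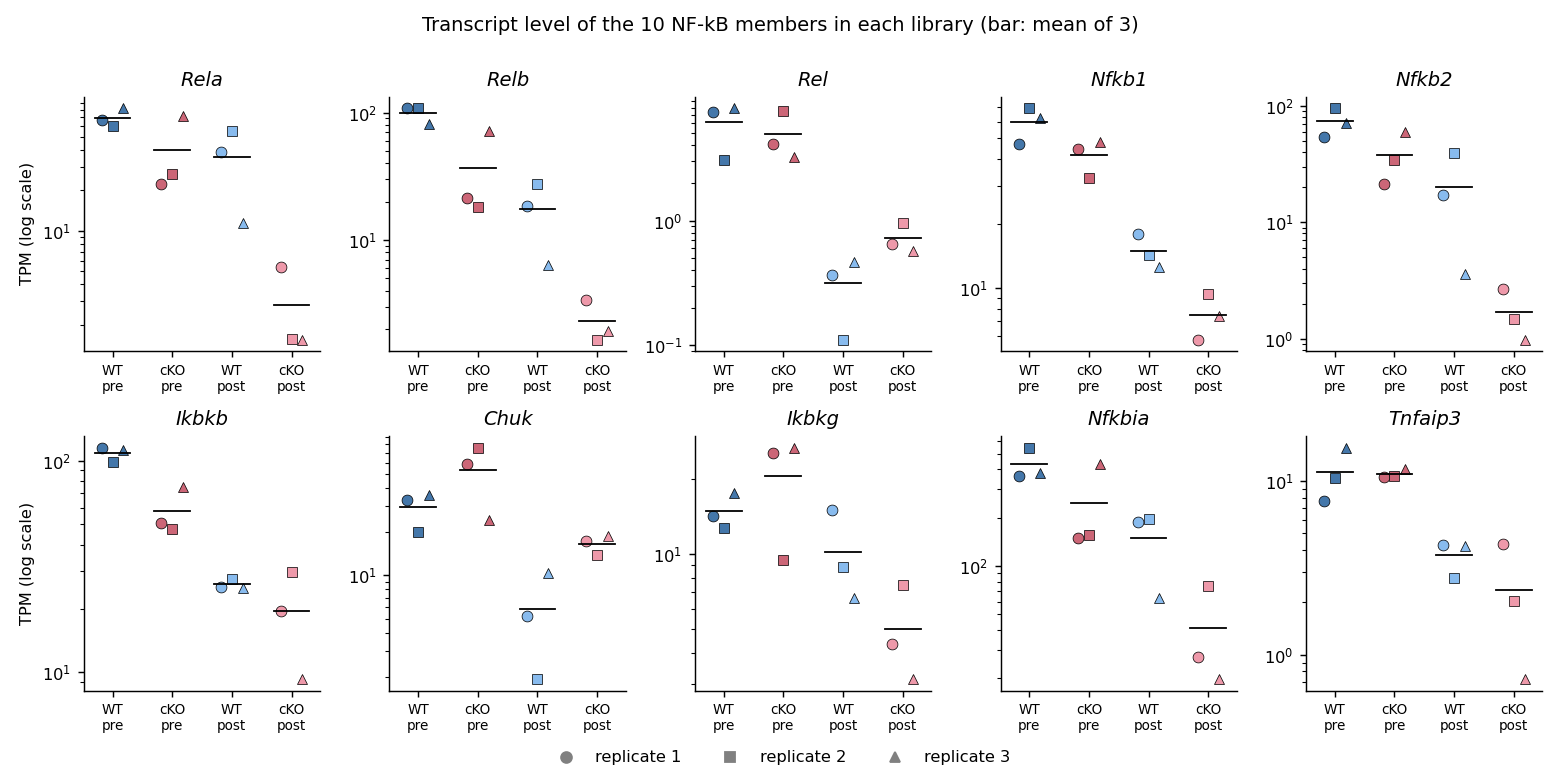
TPM of each member in the 12 libraries (log axes that differ between panels; bars are means of 3 libraries). Rela, Relb and Nfkb2 share a high triangle in TCF-1 cKO pre-transplant and a low triangle in WT post-transplant cells, and Chuk shows the opposite.

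Much of the signal of some members was assigned to transcripts that encode no full protein. For Rela, 98.8% of all counts fell on Rela-201, which is protein coding, and the only quantified transcript of Rel is protein coding. Nfkb1 was the opposite case, with 56.3% of counts on Nfkb1-202, which retains an intron, and medians of 3.6% to 7.7% of counts per group on its protein-coding transcripts. For Chuk, the median protein-coding share was 61.4% in WT and 47.3% in TCF-1 cKO cells before transplant, and 92.4% and 96.1% after. In TCF-1 cKO post-transplant libraries, the protein-coding share of Rela ran from 78.0% to 100%. In replicate 3 of that group, Rela-201 held 0.235 of the 1.55 TPM and the processed transcript Rela-202 held 1.32. After transplant, the median retained-intron share of Relb was 18.3% in TCF-1 cKO and 1.03% in WT cells. For Tnfaip3, the median protein-coding share was then 46.0% and 96.4%. These shares are estimates that split reads among overlapping transcripts. TPM and normalised counts can also differ for a gene. The mean TPM of Chuk before transplant was 53.0 in TCF-1 cKO and 29.6 in WT cells, while its normalised read counts differed by 0.20 on the log2 scale. Scaling is another difference: the median log2 fold change of all genes was 0.39 with library totals and 0.05 with the TMM scaling of the counts. Chuk-203, a transcript of 737 bases that retains an intron, held 34.0, 53.3 and 17.6 TPM in TCF-1 cKO libraries before transplant. In WT libraries it held 5.63, 12.1 and 6.18 TPM. How much this transcript and the scaling each contributed for Chuk was not tested. All comparisons below use counts.

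Does loss of TCF-1 alter NF-kB genes in donor CD8 T cells before transplant? No member passed the false discovery rate (FDR) of 0.1 in this comparison. In edgeR's quasi-likelihood test, 7 of 18757 genes were called (0.0373%), of which 0.0213% were lower and 0.0160% higher, although 3322 genes had an unadjusted p below 0.05. With no filter on low counts 1 member was called (619 of 32123 genes). With sample quality weights in limma-voom 5 were (7566 of 18757 genes), and by DESeq2 none was (1455 of 18757 genes). Relb had the largest difference of the 10, at 71.6 ± 68.6 normalised CPM in TCF-1 cKO against 220 ± 19.7 in WT cells (SD, n = 3; log2 fold change -1.62, standard error 0.59, adjusted p = 0.231). Nfkb2 differed by -1.14 (adjusted p = 0.265), Ikbkb by -1.04 (0.239), Rela by -0.98 (0.337), Nfkbia by -0.98 (0.312), Nfkb1 by -0.68 (0.372), Rel by -0.60 (0.537) and Tnfaip3 by -0.38 (0.665). Chuk and Ikbkg both differed by 0.20 (adjusted p = 0.856 and 0.810).

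Between genotypes before transplant, the normalised counts of Relb, Nfkb1, Nfkb2 and Ikbkb did not overlap, TCF-1 cKO being lower each time. Over all tested genes, 29.1% did not overlap, 10.8% with TCF-1 cKO lower and 18.3% with TCF-1 cKO higher. An exact two-sided permutation test of 3 against 3 libraries cannot give a p below 0.1, which is what each of these 4 genes reached. The median log2 fold change of the members was -0.83, against 0.05 over all genes tested. One library decided this comparison. Without TCF-1 cKO replicate 3, 2739 of 21575 genes tested were called. That fit kept TCF-1 cKO replicates 1 and 2, with 5291453 and 4520270 total estimated counts against 9577076 in replicate 3. Their correlations of deviation with GC content were -0.29 and -0.41, against 0.51 in replicate 3. What depth and GC content contributed to these calls was not tested. Without replicate 3, 5 members were lower: Relb at -2.94 (adjusted p = 0.0139), Rela at -2.02 (0.0200), Nfkb2 at -1.91 (0.0203), Nfkbia at -1.88 (0.0159) and Ikbkb at -1.46 (0.0282). The other 5 omissions called between 0 and 15 genes and no member. The summed CD8 T cell markers were lower in TCF-1 cKO than in WT libraries without overlap. So were the summed CD4 T cell markers, at 68.1 to 96.8 against 133 to 179 CPM. The summed myeloid and dendritic cell markers were also lower, at 1199 to 1579 against 1585 to 3121 CPM. The summed B cell and erythroid markers overlapped. No marker of these lists was called, and the part of such cells in the differences was not tested.

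After transplant, the question was whether alloactivated donor CD8 T cells without TCF-1 differ in the same genes. Rela, Relb and Nfkb2 were lower in TCF-1 cKO cells, and no member was called higher. Rela stood at 133, 236 and 34.4 normalised CPM in WT and at 16.2, 3.63 and 0.927 in TCF-1 cKO libraries, which is -4.28 ± 1.14 as log2 fold change and standard error (adjusted p = 0.0520). Relb stood at 50.2, 94.0 and 13.8 normalised CPM in WT and at 7.64, 3.63 and 3.78 in TCF-1 cKO libraries, which is -3.39 ± 0.76 as log2 fold change and standard error (adjusted p = 0.0448). Nfkb2 stood at 80.2, 214 and 15.0 normalised CPM in WT and at 11.2, 6.19 and 4.15 in TCF-1 cKO libraries, which is -3.85 ± 0.94 as log2 fold change and standard error (adjusted p = 0.0459). In all 3 genes the groups did not overlap, and WT replicate 3 was the WT library closest to the TCF-1 cKO range. Beside these 3 of 10 members, edgeR called 17.9% of the 16026 genes tested, 15.4% lower and 2.51% higher.

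Nfkbia, at 272, 355 and 89.0 normalised CPM in WT and 38.1, 107 and 26.9 in TCF-1 cKO libraries, narrowly missed the threshold and its groups overlapped (log2 fold change -2.06, standard error 0.71, adjusted p = 0.102). Ikbkg differed by -1.14 (adjusted p = 0.183), Nfkb1 by -1.11 (0.153), Tnfaip3 by -0.99 (0.315) and Ikbkb by -0.91 (0.254). Chuk was at 19.6, 5.50 and 36.2 normalised CPM in WT and at 58.5, 44.4 and 65.3 in TCF-1 cKO libraries, a difference of 1.46 ± 0.66 (log2 fold change and standard error) that did not pass (adjusted p = 0.193). Rel was at 3.76, 1.39 and 4.17 normalised CPM in WT and at 5.81, 8.71 and 5.12 in TCF-1 cKO libraries, with a log2 fold change of 1.07 (adjusted p = 0.263). Without overlap between genotypes, 7 members were lower and Chuk and Rel were higher in TCF-1 cKO cells. Of all tested genes 39.3% did not overlap, 18.8% lower and 20.5% higher. The members' median log2 fold change was -1.13, against 0.15 over all genes.

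The number of calls changed here too with the library left out, and each such fit has fewer libraries. WT replicate 3 was the library in which Tcf7 went against its label. It also departed from its group along GC content, with a correlation of -0.43 against 0.088 and 0.38 in WT replicates 1 and 2. Without WT replicate 3, 5299 of 18183 genes tested and 7 members were called, in a fit that was not repeated with an offset for GC content. Rela at -4.78 (adjusted p = 0.0145), Relb at -3.89 (0.00248), Nfkb2 at -4.40 (0.00245), Nfkbia at -2.50 (0.0223), Ikbkg at -1.39 (0.0871) and Nfkb1 at -1.35 (0.0652) were lower. Chuk at 2.11 (0.0495) was higher. Leaving out any of the other 5 libraries left between 0 and 2 genes called and no member. Over all omissions the log2 fold change of Rela stayed between -6.01 and -3.63, that of Relb between -3.95 and -2.71 and that of Nfkb2 between -4.45 and -2.77. Of the markers, Cd3e (1 of 5 for CD8 T cells), Zbtb7b (1 of 2 for CD4 T cells), Itgax (1 of 8 for myeloid and dendritic cells) and Hba-a2 (1 of 6 for erythroid cells) were also called lower in TCF-1 cKO cells, and the myeloid marker Lyz2 was called higher. None of the 7 B cell markers, at most 468 CPM in sum, was called.

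**Figure D3:**
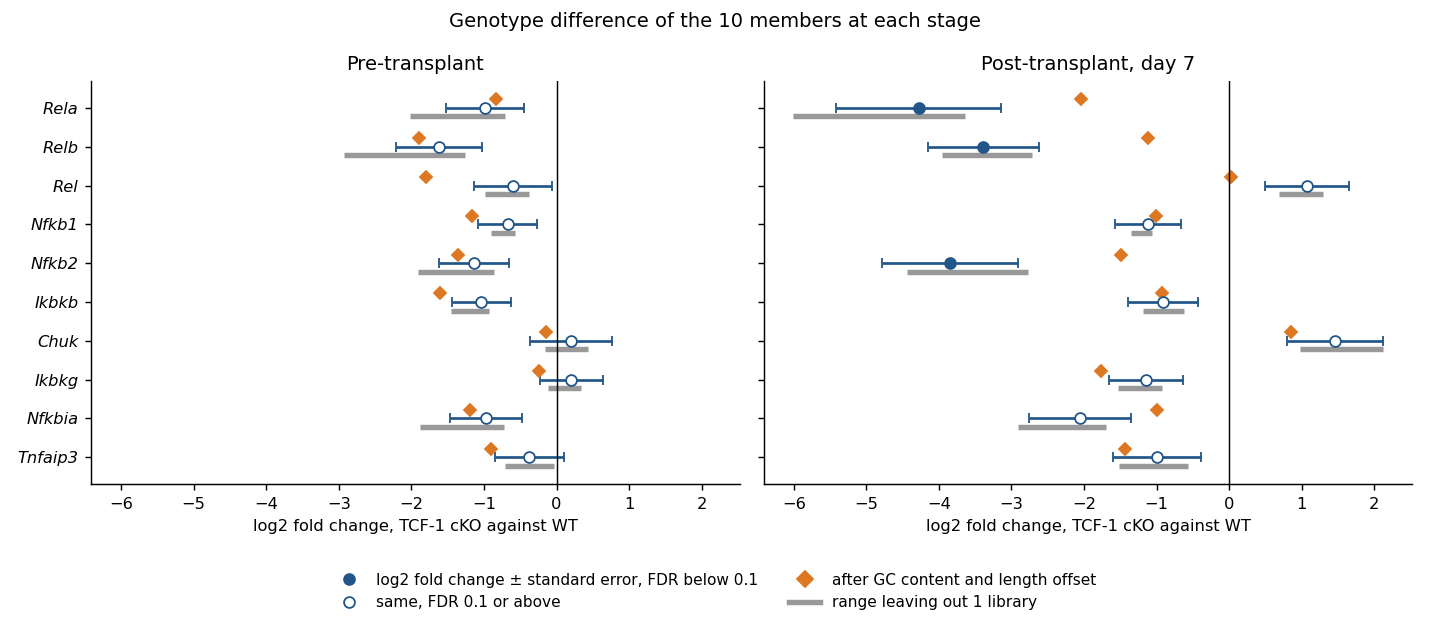
Log2 fold change of each member, TCF-1 cKO against WT, before and after transplant. Circles are estimates with standard errors, filled where the FDR is below 0.1, diamonds are estimates after the GC content and length offset, and grey bars span the fits that leave out 1 library. Filled circles are Rela, Relb and Nfkb2 after transplant, and their diamonds lie nearer to 0.

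The 3 genes that fell are the 3 members richest in G and C, and the 2 that lay higher without overlap are the 2 poorest. Across the 10 members, Spearman's correlation of GC content with the log2 fold change between genotypes was -0.84 before and -0.87 after transplant. These coefficients describe 10 genes measured in the same libraries and carry no test. Over all tested genes the correlation had the same sign and was weaker, with rho of -0.27 over 18757 genes before and -0.56 over 16026 genes after transplant. After transplant, the median log2 fold change of all genes was 0.82 in the second of 10 equal GC content bins, which holds Rel and Chuk, and -2.51 in the highest bin, which holds Rela, Relb and Nfkb2. The differences of Rel and Chuk (1.07 and 1.46) lay above the median of their bin, and those of Rela, Relb and Nfkb2 (-4.28, -3.39 and -3.85) below theirs. For Ikbkg the median of its bin was 0.53, and for Tnfaip3 it was 0.34, against their own values of -1.14 and -0.99.

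When GC content and transcript length were fitted in each library and taken out as an offset, no member was called after transplant and 684 genes were. Rela then stood at -2.05 (adjusted p = 0.183), Relb at -1.12 (0.159), Nfkb2 at -1.49 (0.144), Nfkbia at -0.99 (0.274), Chuk at 0.85 (0.292) and Rel at 0.03 (0.979). All 10 members kept the sign of their difference, and the members' median was -1.06, against -0.13 over all genes. For the targeted gene Tcf7, however, the offset turned -0.91 to 0.28 after transplant, and it moved -1.35 to -1.71 before transplant. Before transplant, the offset called no member either, moved the members' median to -1.18 against -0.30 for all genes, and turned Chuk to -0.15 and Ikbkg to -0.24. Correlations of GC content with the members' difference were -0.32 before and -0.53 after transplant with the offset, and over all genes they were 0.0040 and -0.029. Whether the relation with GC content came from the cells or from library preparation was not tested.

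**Figure D4:**
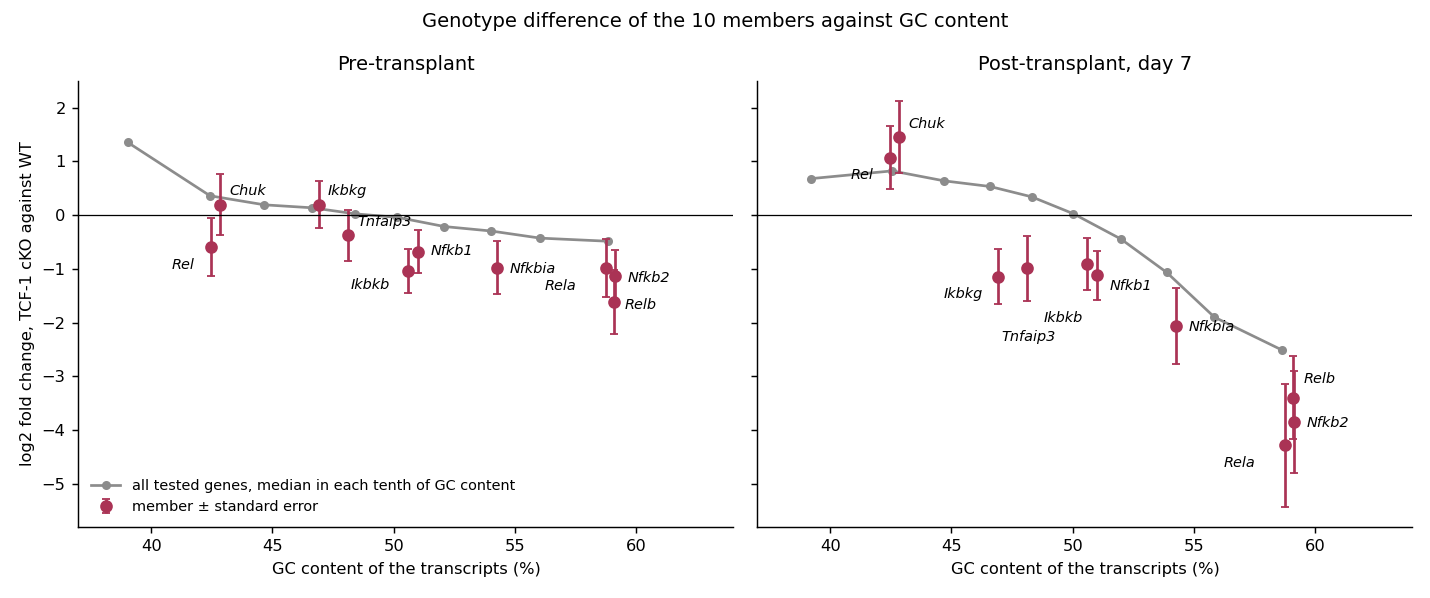
Log2 fold change between genotypes (vertical axis) against the GC content of the transcripts in percent, for the 10 members with standard errors and for the median of all tested genes in each of 10 equal bins of GC content (grey line). After transplant the grey line falls from 0.82 in the second bin to -2.51 in the highest, with Chuk and Rel above 0 at its upper end and Rela, Relb and Nfkb2 at its lower end.

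The same genes were compared between stages within each genotype. Before these values are read, the scaling matters: TMM normalisation put the median log2 fold change of all genes at -0.30 in WT and -0.29 in TCF-1 cKO cells, while scaling by library totals put it at -1.25 and -1.89. The markers listed above changed along with the stage: all 7 B cell markers were called lower and all 5 CD8 T cell markers higher after transplant in both genotypes. What those cells contributed to each NF-kB gene was not tested.

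In WT cells, Rel and Ikbkb were lower after transplant. Rel went from 40.1, 14.6 and 48.1 normalised CPM before to 4.43, 1.58 and 5.39 after, which is -3.17 ± 0.75 as log2 fold change and standard error (adjusted p = 0.0200). Ikbkb went from 210, 182 and 202 normalised CPM to 71.3, 54.5 and 60.9, which is -1.67 ± 0.45 as log2 fold change and standard error (adjusted p = 0.0354). Neither gene overlapped between stages, and nor did Relb (-1.19, adjusted p = 0.252) or Nfkb1 (-1.06, 0.182), all lower. edgeR called 20.0% of 16790 genes in this comparison, 10.3% lower and 9.70% higher, and 33.2% did not overlap, 20.3% lower and 12.9% higher. Rela, by contrast, stood at 123, 97.5 and 160 normalised CPM before and 157, 270 and 44.5 after (0.31, adjusted p = 0.792; -0.78 with library totals), and Nfkb2 at -0.51, Nfkbia at -0.26, Chuk at -0.31, Ikbkg at 0.39 and Tnfaip3 at -0.50 were not called. Rel passed in each of the 6 fits without 1 library, while Ikbkb did not pass without WT pre-transplant replicate 1 (adjusted p = 0.151) or 3 (0.151) or WT post-transplant replicate 1 (0.196), nor with the GC content and length offset (-0.80, 0.174), under which Relb passed (-1.47, 0.0348).

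In TCF-1 cKO cells, Relb and Nfkb2 were lower and Chuk was higher after transplant. Nfkb2 went from 41.0, 56.2 and 151 normalised CPM to 24.3, 11.5 and 8.53, which is -2.49 ± 0.62 as log2 fold change and standard error (adjusted p = 0.0149). Relb went from 18.0, 21.2 and 110 to 16.6, 6.73 and 7.76 normalised CPM, which is -2.26 ± 0.75 as log2 fold change and standard error (adjusted p = 0.0495). Chuk went from 48.0, 43.2 and 15.5 to 127, 82.3 and 134 normalised CPM, which is 1.69 ± 0.48 as log2 fold change and standard error (adjusted p = 0.0280). The call of Chuk depended on the settings: its difference was -0.0093 with library totals (adjusted p = 0.989), 0.32 with counts scaled from TPM (0.596) and 0.88 with replicate block and offset (0.134), and its TPM went down. Rela was at 33.4, 33.6 and 141 normalised CPM before and 35.4, 6.73 and 1.90 after (-2.24, adjusted p = 0.120). Rel, Nfkb1 and Ikbkb were lower without overlap but did not pass (-0.79, -0.80 and -0.86), and Nfkbia (-0.71), Tnfaip3 (-0.42) and Ikbkg (-0.27) overlapped between stages.

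Beside these 3 members, edgeR called 36.5% of 18535 genes between stages in TCF-1 cKO cells, 16.8% lower and 19.7% higher, and 47.0% did not overlap, 24.0% lower and 23.0% higher. A count of 3 in 10 is thus near the share of all genes. Nfkb2 and Chuk passed in each of the 6 fits without 1 library, whereas Relb did not pass without TCF-1 cKO pre-transplant replicate 3 (-0.81, adjusted p = 0.268) or TCF-1 cKO post-transplant replicate 2 (0.164) or 3 (0.152). The stage comparisons share their libraries with the genotype comparisons above, so the values are given side by side and are not independent of them.

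**Figure D5:**
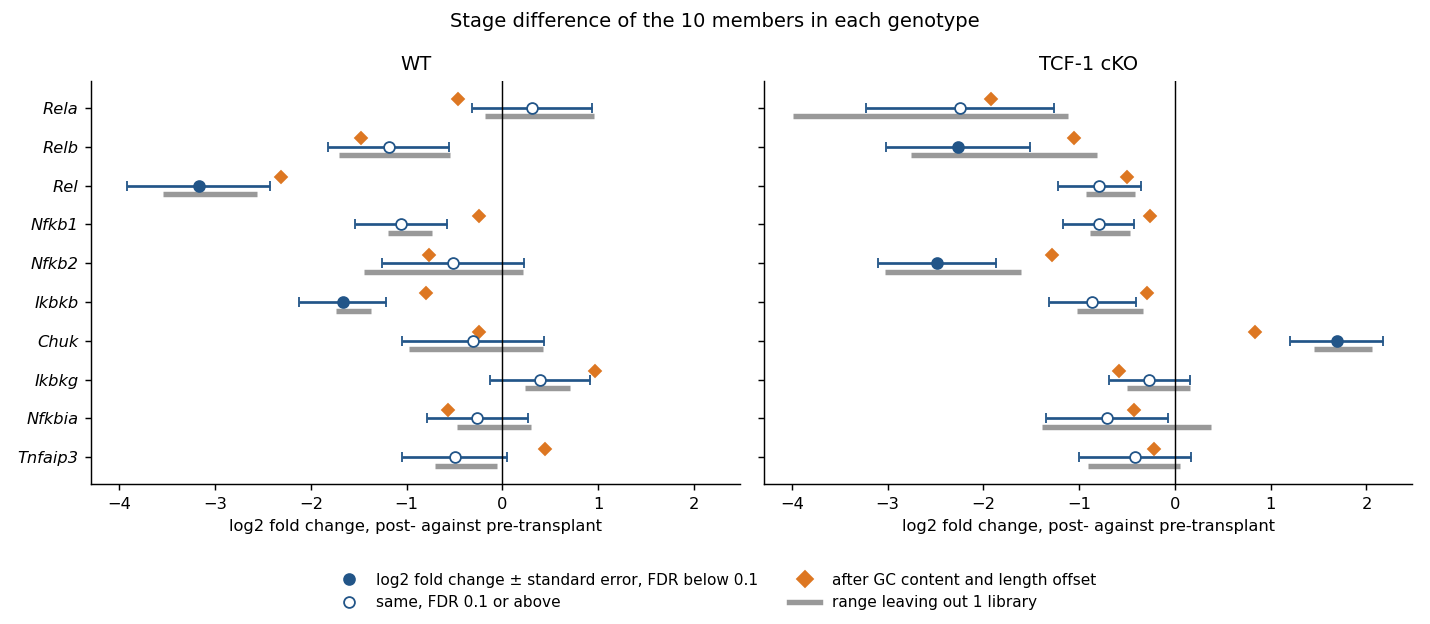
Log2 fold change of each member, post- against pre-transplant, in WT and TCF-1 cKO cells (circles with standard errors, filled where the FDR is below 0.1; diamonds after the GC content and length offset; grey bars span the fits that leave out 1 library). Rel and Ikbkb are filled below 0 in WT, and in TCF-1 cKO cells Relb and Nfkb2 are filled below and Chuk above 0.

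An interaction term, fitted to the 12 libraries together, compared the genotype difference before and after transplant. One of 21526 genes was called (0.00465%, lower, with 0% called higher), no member was, and 3377 genes had an unadjusted p below 0.05. DESeq2 called 1713 of 21526 genes, among them 1 member. The members with an unadjusted p below 0.1 were Rela (-2.79, standard error 1.24, adjusted p = 0.299), Nfkb2 (-2.23, 1.03, 0.314), Rel (2.13, 0.83, 0.265) and Chuk (1.73, 0.93, 0.370), where a negative value means that the difference TCF-1 cKO minus WT was more negative after transplant. Without WT post-transplant replicate 3, 2093 of 23972 genes tested were called, among them Nfkb2 (-2.72, adjusted p = 0.0877), Chuk (2.68, 0.0940) and Rel (2.59, 0.0999).

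Around the core family, 44 other genes of the pathway were counted by role. Before transplant, none of the 42 tested was called between genotypes. After transplant, 15 of 43 were lower and 1 was higher in TCF-1 cKO cells, where 15.4% of all genes tested were lower and 2.51% higher. Of the other I-kappa-B proteins, 4 of 5 were lower, led by Nfkbib at -3.35 (adjusted p = 0.0448), Bcl3 at -4.24 (0.0448) and Nfkbid at -2.12 (0.0561). Bcl3 and Nfkbid are nuclear members of that family, which bind NF-kB dimers on DNA. All 3 genes of the linear ubiquitin ligase, which builds the chains that NEMO binds, were lower: Sharpin at -3.92, Rbck1 at -3.21 and Rnf31 at -3.18.

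Of the 8 genes that link the T cell receptor to the IKK complex, Tab1 was lower (-3.74, adjusted p = 0.0448) and Tab3 was higher (1.62, adjusted p = 0.0958). Their GC contents were 58.2% and 44.4%. Of the 8 ubiquitin-editing inhibitors, Tnip1, a partner of A20, was lower (-3.29, adjusted p = 0.0448). No gene of the noncanonical pathway (4 tested) or of the IKK-related kinases (4 tested) was called. Among known NF-kB targets, 5 of 11 tested were lower, led by the chemokine gene Ccl5 (-2.94, adjusted p = 0.0448), the survival gene Bcl2l1 (-3.02, 0.0448) and the adhesion gene Icam1 (-2.98, 0.0502). With the GC content and length offset, Sharpin (-2.26, adjusted p = 0.0921) and Ccl5 (-2.18, 0.0921) passed and no other of the 43 did.

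Likeness over the 12 libraries was measured as the Pearson correlation of log2 normalised CPM, among 21516 genes and with no test. The 3 genes most like Rela were Grina (0.98), Carmil2 (0.98) and Tmem229b (0.97), and those most like Chuk were Cse1l (0.99), Tefm (0.98) and Kpna3 (0.98). GC contents were 60.4%, 58.7% and 53.5% for the former set and 41.9%, 44.9% and 39.9% for the latter. Among the members, Rela was most like Nfkb2 (0.93) and Relb (0.90), and its correlation with Chuk was -0.76. The 12 libraries fall into 4 groups, which all these genes share.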

How the data were processed

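RNA was extracted with Trizol from sorted CD8 T cells, amplified as full-length cDNA and sequenced in paired ends, and the authors quantified transcripts with kallisto 0.46.2. The deposited values are estimated counts and TPM for 117497 Ensembl transcripts per library, with no replicates pooled. The submitters' processing notes also name limma and the mm9 build, while 115847 transcripts had the length of the same entry in GENCODE M21 (GRCm38), which gave gene names, GC content and positions. Whether any bias correction was used is not given in the sources used here.

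Gene values are sums of estimated counts or TPM over 116374 transcripts assigned to 35855 genes, with counts rounded. Each comparison used its 6 libraries, edgeR 4.0.16 filtering by group, TMM scaling and the quasi-likelihood test, with Benjamini-Hochberg adjustment over all genes tested and an FDR of 0.1. Adjusted p-values without another tool named are from this test. The change of the genotype difference was an interaction over all 12 libraries. Standard errors are the log2 fold change divided by the square root of F. The offset was a loess fit (span 0.4, degree 2) of each library on GC content and transcript length. DESeq2 1.42.0, limma 3.58.1, other scalings, filters, thinning, a replicate block and leaving out each library were tried as alternatives, in R 4.3.3 and Python 3.11.15. The main fit and some alternatives were first tested on simulated counts. These held no trend with GC content and no outlying library, so such conditions were not covered. Genes named beside the members were those with the smallest p in their list, up to 3 per list and comparison, and the 3 genes most like Rela and Chuk. Some genes of these lists are not reported here. The members and lists were chosen with earlier results of these data known. A count of 3, taken as the lowest readable level, was 0.0919 to 0.664 CPM depending on the library, and covers counting error only.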

Additional observations from a re-analysis of the deposited data

How the results depend on the processing

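Numbers of genes called depended on the settings more than the members' directions did. Before transplant, the 7 genes called between genotypes became 3 with DESeq2 size factors, 12 with library totals, 1455 with the DESeq2 Wald test, 2 with limma-voom, 7566 with sample quality weights, 619 with no filter, 0 with the replicate block, 12 with the GC content and length offset, 18 with block and offset, 2 after thinning, 3 in 1 fit over all 12 libraries and 2 at an FDR of 0.05. The count of members called was 5 with quality weights and 1 with no filter. After transplant, the 2868 genes became 4525 with the Wald test, 7591 with quality weights, 684 with the offset, 2 with block and offset and 1396 at an FDR of 0.05, and the 3 members became 6, 8, 0 and 0 under the first 4 of these. Between stages, WT cells had 6318 of 16790 genes with quality weights. They had 6 members with library totals (4853 of 16790 genes), 1 with no filter (3983 of 31075) and 1 with counts scaled from TPM (3169 of 16950). TCF-1 cKO cells had 12268 of 18535 genes and 9 members with library totals. They had 5 members with quality weights (8834 of 18535 genes) and 6 after thinning (7018 of 14651). The interaction had 5 genes with library totals, 1713 with the Wald test, 3440 with quality weights, 580 with no filter, 0 with the replicate block, 2 with the offset, 0 with block and offset and 2 after thinning, with 1, 2 and 1 members for the Wald test, quality weights and no filter. The cause of these shifts was not tested. Rel had the lowest level in 2 groups by CPM in place of TPM, and the correlation of GC content with the stage difference in WT cells was -0.079 with the GC content of the top transcript.

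A pair of alternatives was chosen after seeing the data. Counting protein-coding transcripts only called 0 genes before transplant and 0 in the interaction, and an offset from transcript means called 13 genes before transplant, 829 genes and 0 members after it, and 2 genes in the interaction. Leaving out 1 library gave 0 to 2739 genes and 0 to 5 members before transplant, 0 to 5299 and 0 to 7 after, 1579 to 4156 and 1 to 3 between stages in WT, 5242 to 7114 and 2 to 4 between stages in TCF-1 cKO cells, and 0 to 2093 and 0 to 3 in the interaction.

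Replicate numbers showed no pairing across all comparisons. Correlations of deviations ran from -0.13 to 0.16 between same-numbered libraries and from -0.15 to 0.12 between differently numbered ones. Between genotypes after transplant, however, the same-numbered values (0.087, 0.029 and 0.12) lay above all differently numbered ones (-0.092 to 0.028). In the other comparisons they did not. With the replicate block, 0 members were called before transplant, 4 after (2038 of 16026 genes) and 0 in the interaction. Between stages 2 were called in WT (3097 of 16790 genes) and 2 in TCF-1 cKO cells (5478 of 18535).

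No member that was called changed sign except Chuk between stages in TCF-1 cKO cells, at -0.0093 with library totals. Among uncalled differences before transplant, Ikbkg turned to -0.093 with no filter, -0.24 with the offset, -0.30 with block and offset and -0.37 with transcript means, and ranged from -0.12 to 0.34 when 1 library was left out. Chuk turned to -0.21, -0.15, -0.12 and -0.33 under the same settings and to -0.085 in 1 fit over 12 libraries, and ranged from -0.16 to 0.44. With protein-coding transcripts, Tnfaip3 turned to 0.12 and Nfkb1 to 0.16. After transplant, Rel turned to -0.0093 with block and offset. Between stages in WT cells, Ikbkg turned to -0.56 with library totals, and Tnfaip3 to 0.44, 0.55 and 0.55 with the offset, block and offset, and transcript means. Rela turned to -0.78 with library totals, -0.0015 with limma-voom and -0.47, -0.46 and -0.46 with the offsets in the same order. Chuk turned to 0.21 and Nfkb1 to 0.22 with protein-coding transcripts, and Chuk to 0.077 with transcript means. With 1 library left out, Nfkbia ranged from -0.47 to 0.30, Rela from -0.18 to 0.96, Chuk from -0.97 to 0.42 and Nfkb2 from -1.45 to 0.21. In TCF-1 cKO cells, Ikbkg turned to 0.23 with transcript means and Ikbkb to 0.27 with counts scaled from TPM, and with 1 library left out Ikbkg ranged from -0.50 to 0.15, Tnfaip3 from -0.91 to 0.053 and Nfkbia from -1.38 to 0.37.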

Other observations

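Pathway genes around the members were also compared between stages, on edgeR's test with TMM scaling. In WT cells, 4 of 43 were higher and 9 were lower after transplant, where 9.70% of all genes tested were higher and 10.3% lower. In the noncanonical pathway 3 of 4 were lower: Map3k14, the kinase NIK that activates IKK alpha (log2 fold change -2.30, adjusted p = 0.0257), and Traf3 (-2.15, 0.0404) and Birc3 (-2.66, 0.0490), which keep NIK low. All 3 were also called once GC content and transcript length were taken out. Of the ubiquitin-editing inhibitors 4 of 8 were lower, led by Tnip2 (-2.45, 0.0182). Among target genes, the cytokine gene Csf2 (5.06, 0.00957), Ccl5 (2.96, 0.00715) and Ier3 (2.28, 0.0749) were higher.

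In TCF-1 cKO cells, 7 of 43 were higher and 9 were lower after transplant, where 19.7% of all genes tested were higher and 16.8% lower. Il2ra, the high-affinity chain of the interleukin-2 receptor, was higher (log2 fold change 4.99, adjusted p = 0.000196), as were Csf2 (6.98, 0.000196), Prkcq, the protein kinase C of the T cell synapse (2.89, 0.000778), and Otulin, which removes linear ubiquitin (2.73, 0.00146). Malt1, a protease that acts between the T cell receptor and the IKK complex, was lower (-1.57, 0.0109). The B cell and CD8 T cell markers moved between the same libraries, and their part in these values was not tested. Whether WT and TCF-1 cKO cells differed in these stage changes is the interaction above, in which none of the 43 genes was called by edgeR.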
